A study of Mus musculus with 2 samples.

Results

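The B7 family immune checkpoint ligands were followed in Dicer_KO mouse embryonic stem cells (mESCs). The 8 genes, Vtcn1, Vsir, Cd274, Pdcd1lg2, Cd276, Cd80, Cd86 and Icosl, were chosen by family name from the 43629 genes listed in the count files. The family was proposed after earlier results of these counts were known, in particular the 120 and 12 counts of Vtcn1 in the 2 libraries. The values of the members are therefore given as a description, with no test.

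Both libraries came from mESCs of a 129/Ola background, a blastocyst-derived line, and carried the Dicer knockout. Per the study's methods, the knockout lines were derived from E14TG2a cells with paired CRISPR/Cas9 guides, and cells were sorted singly after transfection, so each line is 1 clone. The study made more than 1 Dicer deletion, and the sample labels do not say which deletion each library carries. Replicate 1 was harvested at passage 7 and replicate 2 at passage 4. The cells were routinely grown in serum with leukemia inhibitory factor. Clone, deletion, passage and library cannot be told apart in any difference between the replicates, and WT libraries were not analysed here.

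B7 ligands are immunoglobulin-type surface proteins that T cells read together with the antigen signal. CD80 and CD86 engage the activating receptor CD28 and the inhibitory receptor CTLA4, and the protein of Icosl engages ICOS. PD-L1, encoded by Cd274, and PD-L2, encoded by Pdcd1lg2, bind the inhibitory receptor PD-1. B7-H4 (Vtcn1), VISTA (Vsir) and B7-H3 (Cd276) are mainly described as inhibitors of T cells. CD80, CD86 and PD-L2 are best known from antigen presenting cells, whereas B7-H3 and B7-H4 are known from non-immune tissues and tumours.

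DICER cuts the precursors of miRNAs, which pair with mRNAs mainly through their seed, bases 2 to 8. To show which seeds could pair with the members, 5 miRNAs were taken from RefSeq (GRCm38.p6). They are miR-295 and miR-16, which the study probed in its cells, the miR-29 family, known to act on B7-H3, and miR-34a and miR-200c, known to act on PD-L1. The mature sequences follow, 5′ to 3′, with the seed in capitals.
miR-295-3p: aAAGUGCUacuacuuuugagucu
miR-16-5p: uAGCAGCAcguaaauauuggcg
miR-29a-3p: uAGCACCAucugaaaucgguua
miR-34a-5p: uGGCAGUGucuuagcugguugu
miR-200c-3p: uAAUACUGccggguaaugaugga

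The seed of miR-295-3p is shared by miR-291a-3p, miR-294-3p, miR-302b-3p and miR-302d-3p, miRNAs typical of pluripotent cells. Its 7-base match, AGCACTT on the mRNA strand, was found in the 3′ UTR of 2 of the 8 members, Cd80 and Cd86. It was present in 16.9% of the 14593 measured genes with a 3′ UTR. The miR-16 match, TGCTGCT, was found in 4 members (Vtcn1, Vsir, Cd274 and Cd80), against 23.7% of measured genes. The miR-29 match, TGGTGCT, was found in Cd276 alone among the members (15.0% of measured genes). The miR-34a match, CACTGCC, was found in Vtcn1 and Icosl (16.9%). The miR-200c match, CAGTATT, was in no member (14.7%), and Pdcd1lg2 held none of the 5 matches. The members had longer 3′ UTRs than most genes, with a median of 1783 bases against 1124 bases in measured genes, and enrichment was not tested.

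Sites of the miR-295, miR-16 and miR-29 families are printed below, to show which members carry them, from the GENCODE M21 transcripts (GRCm38), 5′ to 3′ on the mRNA strand, with the seed match in capitals. Cd80, at chr16:38495224-38495245 (plus strand), and Cd86, at chr16:36604791-36604812 (minus strand), hold the miR-295 match. In Cd86 the base after the match is an A, a context known to favour repression.
Cd80, miR-295: ggtaattttcagccAGCACTTt
Cd86, miR-295: ctagagaaagacccAGCACTTa
The miR-16 match is shown once for each of its 4 carriers. The sites lie at chr3:100895912-100895933 for Vtcn1, chr10:60371899-60371920 for Vsir, chr19:29385805-29385826 for Cd274 and chr16:38495751-38495772 for Cd80, all on the plus strand.
Vtcn1, miR-16: tgttatttctcaaaTGCTGCTt
Vsir, miR-16: atgttctgcatgctTGCTGCTt
Cd274, miR-16: tcaccaaactcaacTGCTGCTt
Cd80, miR-16: aagaagcagctaacTGCTGCTt
Cd276 holds 2 miR-29 matches, at chr9:58524948-58524969 and chr9:58524608-58524629 (minus strand), the farther of which is also followed by an A.
Cd276, miR-29, nearer the stop codon: aacaggcgtgagcaTGGTGCTg
Cd276, miR-29, farther from it: aggccttcttaccaTGGTGCTa

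**Figure D1:**
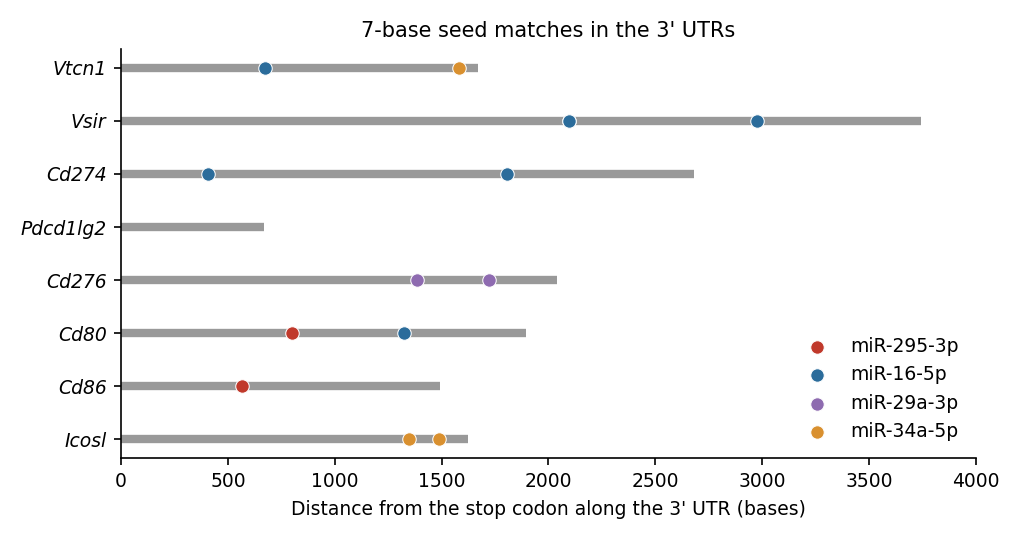
The 3′ UTR of each member is drawn to scale as a grey bar, with the distance from the stop codon in bases on the x axis and each 7-base seed match as a coloured point. Cd80 and Cd86 carry the miR-295 match, Cd276 carries only miR-29 matches, and Pdcd1lg2 carries none.

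A match is a run of letters and not a proven site. Vsir had 3 miR-16 matches, of which 2 overlap, in a 3′ UTR of 3745 bases. Both libraries carry the Dicer knockout, so the matches were not set against cells that contain miRNAs.

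The depth of the libraries was nearly equal, with 41710122 counts on genes in replicate 1 and 41566184 in replicate 2. Levels are given as CPM, the counts scaled to a library total of 1000000, with 95% Clopper-Pearson intervals that cover counting error only. The targeted gene, Dicer1, still had 1343 counts in replicate 1 and 1510 in replicate 2. Counts per gene include exons outside the deletions, so they do not check the knockout. The study checked it by genomic PCR, by immunoblot of DICER and by northern blot of mature miRNAs. It also reported a loss of Dicer mRNA from its RNA sequencing, which was not tested here, since WT libraries were not analysed. The labelled cell type was checked on 9 pluripotency genes. All 9 had at least 375 counts in both libraries, and none differed 4-fold between them, with log2 ratios from -0.32 to 0.74. Pou5f1 had 39069 and 43025 counts, Nanog 47522 and 26215, and Sox2 26499 and 21353.

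Cd276 (ENSMUSG00000035914) was the dominant B7 ligand of the Dicer_KO mESCs. The gene lies on chromosome 9 of GRCm38 from 58524298 to 58555437 on the minus strand. It had 1535 counts in replicate 1 and 1482 in replicate 2, or 36.8 CPM (35.0 to 38.7) and 35.7 CPM (33.9 to 37.5). The libraries overlapped within counting error, and the mean was 36.2 ± 0.812 CPM (SD, n = 2). Cd276 alone held 56.3% of the counts of the 8 members in replicate 1 and 53.8% in replicate 2. Its level per kb of exon was above that of 66.1% of the 14699 protein-coding genes that averaged 10 or more scaled counts. The same share was 37.0% for Icosl, 32.3% for Cd80, 27.7% for Cd274, 18.9% for Vtcn1, 18.1% for Vsir and 7.60% for Cd86.

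Pdcd1lg2 (ENSMUSG00000016498) was at the other end, with 0 counts in both libraries. At this depth, 3 counts correspond to 0.0719 CPM in replicate 1 and 0.0722 CPM in replicate 2, the limit that a count of 0 allows, and PD-L2 mRNA was not detectable at this depth. Pdcd1lg2 starts 22.8 kb after the end of Cd274 on chromosome 19 of GRCm38, and its neighbour was counted in both libraries. The noncoding gene A930007I19Rik, which overlaps Pdcd1lg2 on the opposite strand, had 16 and 20 counts.

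To order the members, CPM was divided by the length of all exons of a gene in kb, since raw counts of genes of different length cannot be compared. Cd276 had 10.1 and 9.75 CPM per kb in replicates 1 and 2. Icosl followed with 1.80 and 3.50 CPM per kb, Cd80 with 1.10 and 2.83, and Cd274 with 2.09 and 0.704. Vtcn1 had 1.10 and 0.110 CPM per kb, Vsir 1.07 and 0.0432, and Cd86 0.0917 and 0.256. Only Cd276 at the top and Pdcd1lg2 at the bottom were separated from their neighbour in this order by more than the range between the libraries. The 6 genes between them overlapped their neighbours. Cd274 had rank 2 in replicate 1 and rank 4 in replicate 2.

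**Figure D2:**
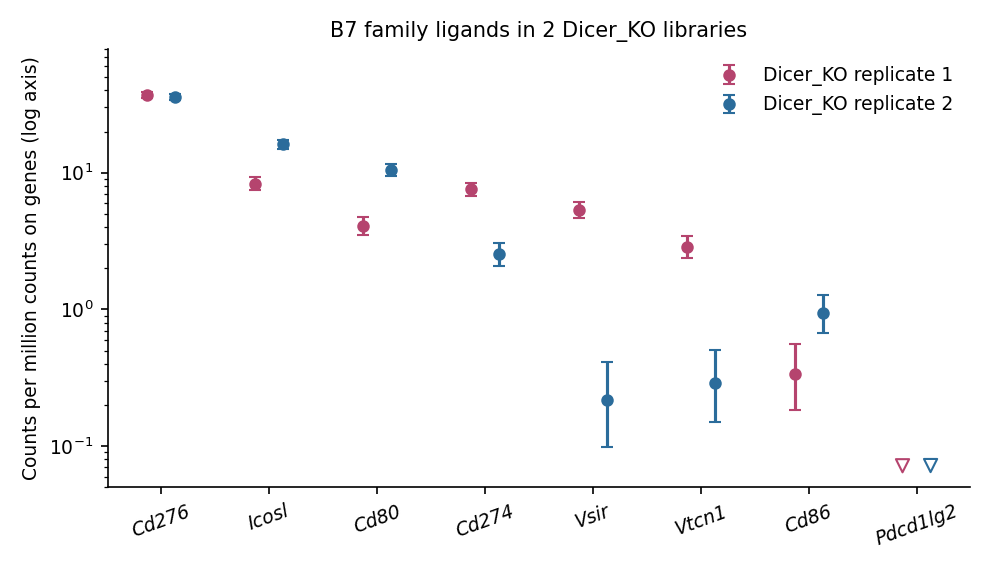
CPM of each member (log axis) in Dicer_KO replicates 1 and 2, with 95% Clopper-Pearson intervals as bars. Open triangles mark the level of 3 counts, drawn for Pdcd1lg2, which had 0 counts. Cd276 lies together in both libraries, while Cd274, Vsir and Vtcn1 lie higher in replicate 1 and Icosl, Cd80 and Cd86 higher in replicate 2.

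Next, the libraries were compared gene by gene. Replicate 2 was scaled to replicate 1 by TMM, a count scaling that sets the bulk of genes equal, and 1 count was added before the log2 ratio was formed. A positive ratio means a higher level in replicate 1. With 1 library on each side there is no replicate check. The intervals of the ratios are exact binomial intervals of the counts and cover counting error only. A 4-fold difference was used as the mark of a large one, among 17816 genes whose scaled counts averaged 10 or more. Of these genes, 5.73% differed 4-fold in either direction, 4.16% with replicate 1 higher and 1.57% with replicate 2 higher.

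Among the members, 7 of 8 passed the minimum, and Pdcd1lg2 did not. Vsir, with 9 counts in replicate 2, passed it through replicate 1. A 4-fold difference was seen for 2 members, Vsir and Vtcn1, both higher in replicate 1, and for 0 members in the other direction. Of all genes, 4.16% and 1.57% differed 4-fold in these directions. The counts of Vtcn1 were known when the family was proposed, and replicate 1 is where Vsir was higher. Nothing is therefore read from this count. At 2-fold, 6 members differed, 3 in each direction, where 21.5% of all genes did. Cd276 was the exception. The 6 include Vtcn1 and Vsir, and Icosl fell just under 2-fold when scaled by total counts. Nothing is read from this count either. Since the differences ran both ways, the members together had 65.4 CPM in replicate 1 and 66.3 CPM in replicate 2.

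Vsir (ENSMUSG00000020101) encodes VISTA, an inhibitory ligand otherwise known from myeloid and resting T cells. It had 224 counts, or 5.37 CPM (4.69 to 6.12), in replicate 1 and 9 counts, or 0.217 CPM (0.0990 to 0.411), in replicate 2. The log2 ratio was 4.38 (3.56 to 5.66), a 20.8-fold difference, and 33 of the 17816 genes (0.185%) had a ratio at least as high. Since Vsir passed the minimum through replicate 1, where it was higher, this share is a description only. Vsir lies on chromosome 10 of GRCm38 from 60346851 to 60372684 on the plus strand, entirely within the span of Cdh23 on the minus strand. The labels give a reverse-stranded protocol, but whether the counting used the strand is not given in the sources used here. Reads on overlapping regions were left out, so without the strand reads of both genes would be lost where their exons overlap. Cdh23, a cadherin gene named here after its values were seen, had 44 and 24 counts. Per kb of exon it had 0.0623 and 0.0341 CPM, below Vsir, which had 1.07 and 0.0432 CPM per kb.

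Vtcn1 (ENSMUSG00000051076) encodes B7-H4, an inhibitor of T cell proliferation that is also made by epithelia and the placenta. It had 120 counts, or 2.88 CPM (2.39 to 3.44), in replicate 1 and 12 counts, or 0.289 CPM (0.149 to 0.504), in replicate 2. The libraries did not overlap within counting error. The log2 ratio was 3.11 (2.34 to 4.19), an 8.61-fold difference, which 171 genes (0.960%) reached. Since the family was proposed with these counts known, this share is a description only. Vtcn1 lies on chromosome 3 from 100825459 to 100896922 on the plus strand. The protein-coding genes nearest to Vtcn1 in ratio and mean CPM over the 2 libraries were Sox10 with 116 and 11 counts, Fbln5 with 108 and 10, and Slc41a2 with 137 and 14. They lay 0.088, 0.19 and 0.19 log2 units from it, a likeness that rests on this pair of values alone.

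Cd274 (ENSMUSG00000016496) encodes PD-L1, the ligand of PD-1 that interferon gamma is known to induce in many cell types. It had 316 counts, or 7.58 CPM (6.76 to 8.46), in replicate 1 and 106 counts, or 2.55 CPM (2.09 to 3.08), in replicate 2. The counting intervals were apart, with a log2 ratio of 1.45 (1.13 to 1.78), or 2.72-fold. A ratio at least this high was found for 8.37% of genes. Cd274 lies on chromosome 19 from 29367455 to 29388095 on the plus strand.

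The 3 ligands of the CD28, CTLA4 and ICOS receptors went the other way. Icosl (ENSMUSG00000000732, chromosome 10, 78069302 to 78083913, plus strand) had 347 counts, or 8.32 CPM (7.47 to 9.24), in replicate 1 and 673 counts, or 16.2 CPM (15.0 to 17.5), in replicate 2. Its log2 ratio was -1.08 (-1.27 to -0.89), so that replicate 2 was 2.11-fold higher. When scaled by total counts in place of TMM the ratio was -0.96, just under 2-fold.

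Cd80 (ENSMUSG00000075122) encodes B7-1, which also binds PD-L1. It had 170 counts, or 4.08 CPM (3.49 to 4.74), in replicate 1 and 435 counts, or 10.5 CPM (9.50 to 11.5), in replicate 2. The log2 ratio was -1.47 (-1.74 to -1.22), with replicate 2 2.77-fold higher, and 3.67% of genes had a ratio this low or lower. Cd86 (ENSMUSG00000022901), which encodes B7-2, had the lowest mean of the detected members, but in replicate 2 it was above Vtcn1 and Vsir. It had 14 counts or 0.336 CPM (0.184 to 0.563) in replicate 1 and 39 counts or 0.938 CPM (0.667 to 1.28) in replicate 2. Its log2 ratio was -1.53 (-2.60 to -0.69). Both genes lie on chromosome 16, Cd80 from 38455561 to 38496335 on the plus strand and Cd86 from 36603869 to 36666081 on the minus strand, and both were higher in replicate 2 beyond counting error. The log2 ratio of Cd276 was -0.07 (-0.18 to 0.03), and scaling by total counts turned it to 0.05.

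**Figure D3:**
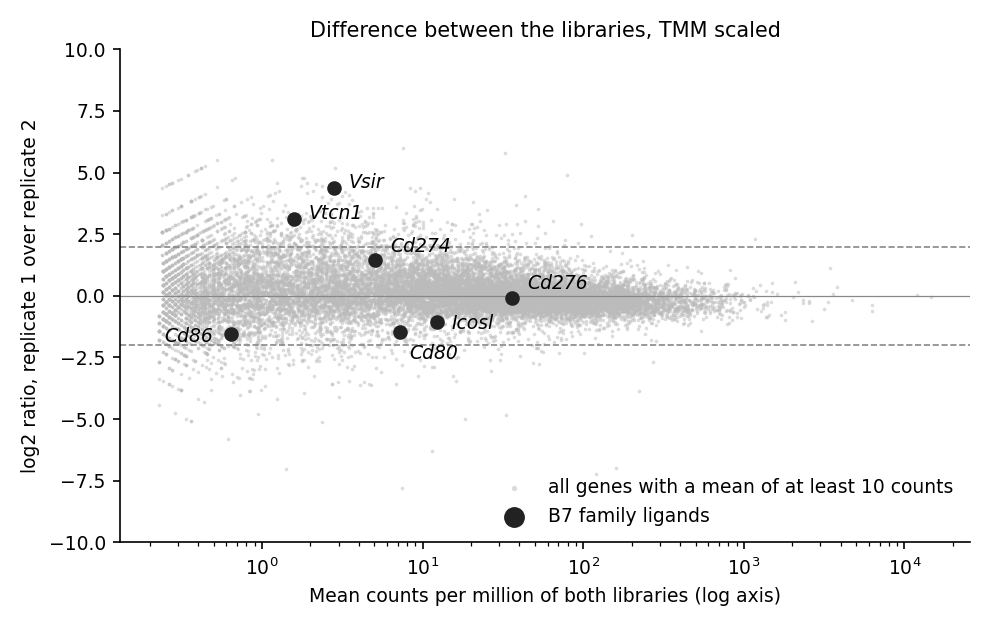
Each grey point is 1 of the 17816 genes averaging 10 or more scaled counts. The x axis gives the mean CPM of both libraries (log axis) and the y axis the TMM-scaled log2 ratio of replicate 1 over replicate 2, with dashed lines at 4-fold. Vsir (4.38) and Vtcn1 (3.11) lie above the upper line, and the other 5 members shown lie between the lines.

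The receptors and other partners of the family were followed in a list of 7 genes, of which 4 had at least 10 counts in either library. The receptors of T cells were nearly silent. Cd28 had 4 and 1 counts, Ctla4 1 and 2, and Icos 0 and 0, while Pdcd1, the gene of PD-1, had 14 and 5. The partners outside the CD28 family were better covered. Selplg, a sialomucin reported to bind VISTA, had 235 and 36 counts, a log2 ratio of 2.55 (2.07 to 3.13). Rgmb, a bone morphogenetic protein coreceptor that binds PD-L2, had 521 and 270 counts. Igsf11, another VISTA partner, had 101 and 60. These 3 genes passed the minimum, and 1 of them, Selplg, differed 4-fold, where 4.16% of all genes did in this direction. Their median log2 ratio was 0.82, against 0.02 over all genes, and no shift is read from 3 genes.

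Butyrophilins are the closest relatives of the B7 proteins. In a list of 6 butyrophilins and relatives, 3 had at least 10 counts in either library. Btn2a2, which restrains T cells, had 63 and 21 counts. Mog, a myelin protein gene, had 77 and 42. Btn1a1, known from milk fat, had 20 and 3 and was the only one to differ 4-fold, at 2.30 (0.86 to 5.01), where 4.16% of all genes did so in this direction. It passed the minimum through replicate 1 alone, the library where it was higher, so nothing is read from this count.

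PD-L1 is also set after translation, and 5 genes of that step were all well covered, with none differing 4-fold. Cmtm6, which protects PD-L1 from lysosomal breakdown, had 3621 and 3254 counts, and its relative Cmtm4 had 4276 and 3857. The ubiquitin ligase genes Spop and Stub1 had 4358 and 4452 counts and 3495 and 2844 counts. These 4 genes had log2 ratios between -0.15 and 0.18. Hip1r, which directs PD-L1 to the lysosome, differed more, with 1029 and 357 counts, or 2.64-fold.

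The interferon gamma axis, which controls Cd274 in other cells, was followed in 9 genes. None differed 4-fold, 7 were higher in replicate 1 and 2 in replicate 2, and the median log2 ratio was 0.64. Of all 17816 genes, 9129 were higher in replicate 1, with a median of 0.02. Irf1, the factor that acts on Cd274 most directly, had 4724 and 2282 counts (0.93), and Irf2, which can counter it, had 1181 and 491 (1.14). Jak1, a kinase of the receptor, had 5567 and 5413 counts (-0.08). Jak2, at 1905 and 1126, and the receptor genes Ifngr1, at 530 and 303, and Ifngr2, at 1075 and 818, lay between them. Socs1, a feedback inhibitor, had 141 and 81, and Nlrc5, an activator of class I antigen presentation, 69 and 42.

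Checkpoint ligands outside the family were taken as a list of 16 genes, 12 of which passed the minimum. Of these, 2 differed 4-fold, both higher in replicate 1, where 4.16% of all genes did. They were Tnfrsf14, the gene of the BTLA ligand HVEM, with 133 and 23 counts, and H2-T23, which encodes the nonclassical class I molecule Qa-1, with 23 and 4. H2-T23 passed the minimum through replicate 1 alone. The 4 best covered genes were Cd24a with 6382 and 6953 counts, Lgals9 with 8830 and 4487, Nectin2 with 8244 and 4377, and Pvr with 4046 and 3562. All 4 were counted more than Cd276. The median log2 ratio of the 12 genes was 0.37.

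In a bulk sample, fewer cells of a type and less RNA per cell cannot be told apart, so markers of other cells were read beside the members. Of 11 markers of antigen presenting cells, the usual source of CD80 and CD86, 7 had at least 10 counts in either library. The summed level of all 11 was 35.0 CPM in replicate 1 and 17.7 CPM in replicate 2, most of it from Cd74, with 1066 and 401 counts. The defining marker Ptprc (CD45) had 5 and 4 counts, Itgax 1 and 0, Itgam 13 and 6, and Adgre1 0 and 0. H2-Eb1, a class II gene, had 111 and 254 counts. Csf1r, with 95 and 1 counts, and H2-Ab1, with 81 and 13, differed 4-fold in the direction of Vsir, where 4.16% of all genes did. Csf1r passed the minimum through replicate 1 alone. The part of such cells in the values of Cd80, Cd86 and Vsir was not tested.

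Trophoblast markers stood apart between the libraries. Of 11 markers, 9 passed the minimum and 5 differed 4-fold, all higher in replicate 1, where 4.16% of all genes did. The summed level of all 11 was 537 CPM in replicate 1 and 93.9 CPM in replicate 2, most of it from the keratin genes Krt8 and Krt18. The difference in this sum is therefore mainly one of keratin genes. Krt7, Krt8 and Krt18 were also among the 5 genes beyond 4-fold. Krt7 had 2674 and 44 counts, Krt8 8004 and 1370, Krt18 7162 and 880, Hand1 229 and 15, Elf5 70 and 11, and Tfap2c 3742 and 1311. Cdx2, which defines the early trophectoderm, had 6 and 1 counts. Ascl2, with 106 and 103 counts, did not differ in this way, at a log2 ratio of -0.08. Of the 9 markers, 8 were higher in replicate 1, as were 9129 of all 17816 genes. Among the members, Vtcn1, Vsir and Cd274 were higher in replicate 1, and Icosl, Cd80 and Cd86 in replicate 2. The part of trophoblast cells in the levels of these ligands was not tested.

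The markers of fibroblasts and endoderm were mostly scarce. Of 8 fibroblast markers, 4 passed the minimum. The summed level of all 8 was 27.2 and 18.1 CPM, most of it from Thy1 with 823 and 621 counts. Col1a1 had 20 and 18 counts, Pdgfrb 285 and 91, and Postn 0 in both libraries. Dcn, with 0 and 19 counts, was the single gene of these lists to differ 4-fold with replicate 2 higher, where 1.57% of all genes did. It passed the minimum through replicate 2 alone. Of 6 endoderm markers, 4 passed, none of these differed 4-fold, and the summed levels of all 6 were 16.3 and 8.54 CPM. Gata4 had 586 and 318 counts, Gata6 16 and 5, Sox17 14 and 10, and Dab2 52 and 17.

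**Figure D4:**
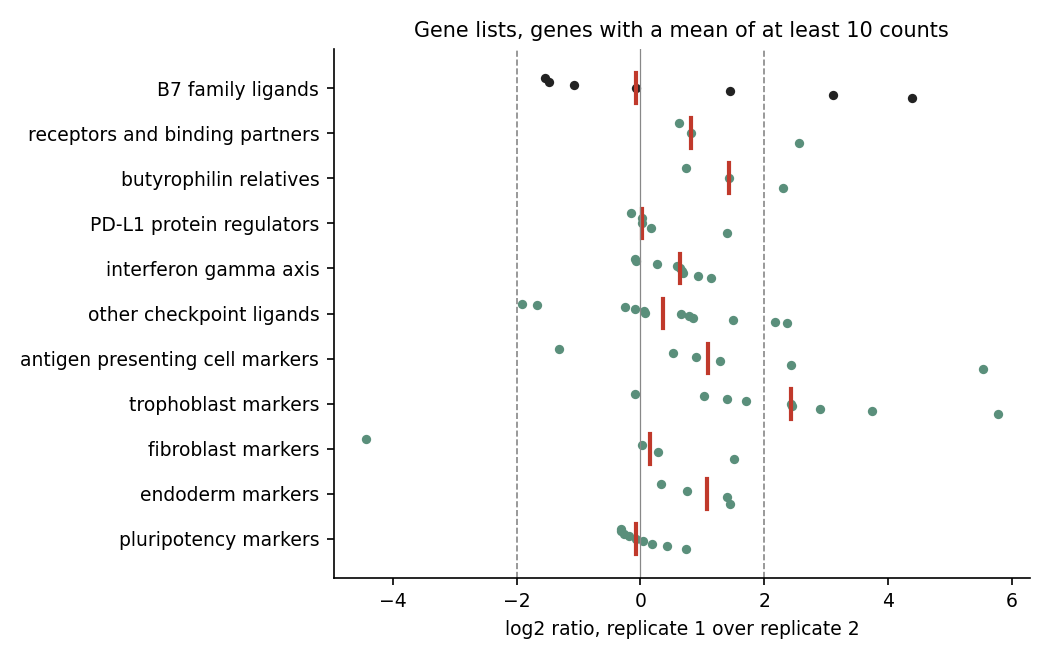
Each point is a gene averaging 10 or more scaled counts, placed by its TMM-scaled log2 ratio of replicate 1 over replicate 2. Red bars give the median of each list and dashed lines mark 4-fold. The B7 ligands spread from -1.53 to 4.38 around a median of -0.07, while the trophoblast markers have a median of 2.42.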

How the data were processed

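RNA of 2 Dicer_KO mESC libraries was analysed. Per the methods and labels, low-quality ends and adapters were cut by Trimmomatic, STAR (version 2.4.2a) placed the reads on mm10 (GRCm38), and reads with very many alignments were kept. The authors deposited whole-number counts per Ensembl gene from featureCounts (version 1.4.5-p1), not normalized, with reads on overlapping regions left out. How reads with several alignments were counted is not given in the sources used here.

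Symbols, lengths and 3′ UTRs (the longest of each gene) came from GENCODE M21, which held 42462 of the 43629 identifiers. The 1167 others held 0.190% and 0.187% of the counts. Replicate 2 was multiplied by 1.088, a factor that TMM gave in R 4.3.3 (edgeR 4.0.16). Log2 ratios used a pseudocount of 1. Intervals (scipy 1.17.1) are exact binomial, at 95%, and cover counting error only. The ratio and its interval were tested on simulated data. No p-value was computed, since all libraries share 1 condition.

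The members and lists were chosen with earlier results of these data known. Named genes are the members, Dicer1, list genes with at least 10 counts in either library (in lists over 9 genes, the 4 highest by CPM), list genes beyond 4-fold, the 3 genes nearest to Vtcn1, and defining markers near 0. Some genes of the lists are not reported here by name. Alternatives were DESeq2 (version 1.42.0) size factors, total or raw counts, a pseudocount of 0.1, other minimums and folds, and each replicate alone. Protein identities were not analysed here.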

Additional observations from a re-analysis of the deposited data

How the results depend on the processing

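No paired analysis was possible because the series holds 1 group of 2 libraries. A ratio between the libraries has no value with 1 of them left out, and the ratio of Pdcd1lg2 has none at 0 counts. For 30 results, 111 alternative values were computed. The log2 ratio of Vsir lay between 4.38 and 4.50 and that of Vtcn1 between 3.11 and 3.22 under the other scalings and the pseudocount of 0.1, and those of Cd274, Icosl, Cd80 and Cd86 kept their direction. Cd276 went from -0.07 to 0.046 with total counts and to 0.051 with raw counts. Members beyond 4-fold numbered 2 under each scaling and minimum, and 6 at 2-fold. All genes beyond 4-fold numbered 1021, but 2175 with no filter on low counts, 530 with a mean of at least 50 counts, where fewer genes enter, and 3826 at 2-fold. Scaling by total counts moved the median of all genes from 0.02 to 0.14 and each of the 11 list medians by 0.1 or more. With no filter, 3 list medians moved as much. The members kept their order when the longest transcript gave the length. Depth limits Vsir, Cd86 and Vtcn1 most, which had the widest intervals, with 9 counts in replicate 2, 14 in replicate 1 and 12 in replicate 2.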
